A study of Mus musculus with 8 samples.

Results

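A set of 10 cytokine and cytokine receptor genes was examined in the hippocampus of BTBR mice and of B6 control mice. The genes are the ligands Il1b, Il18, Il33, Tgfb1 and Tgfb2 and the receptors Il1r1, Il6ra, Il6st, Tnfrsf1a and Tgfbr2, and every array probe that carries 1 of these 10 names was taken, out of 27373 gene names on the array. BTBR mice carry the genotype BTBR T+ Itpr3tf/J in the labels and are an inbred strain used as a model of autism spectrum disorder. B6 mice are wild type C57BL/6J. The labels also give C57BL/6J as the strain background of the BTBR samples. Their title, source name and genotype all read BTBR, and they were grouped by these. All 8 mice, 4 of each strain, were male and 5 months old, were kept in standard cages and received no drug. Cy3-labeled RNA of the whole hippocampus was hybridized to single-color Agilent arrays, 1 mouse per array, and the comparison asks which genes differ in expression between the strains. An inbred strain differs from another at many loci, so that no single allele separates the groups.

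Cytokines are small secreted proteins that carry signals between cells, and in the brain they pass between microglia, astrocytes, neurons and vessel cells. Interleukin-1β and interleukin-18 are made as inactive precursors and cut by caspase-1, interleukin-33 is kept in the nucleus and released from damaged cells, and transforming growth factor β is secreted bound to a latency peptide. Interleukin-1 acts through Il1r1 and its partner Il1rap, interleukin-6 through Il6ra and the shared subunit gp130 (Il6st), tumor necrosis factor through Tnfrsf1a, and transforming growth factor β through Tgfbr2, which recruits Tgfbr1.

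The 10 genes had 13 probes, each a 60-base oligonucleotide, with 49 spots per array in all. The GC content of the probes lay between 35% and 55%. The probe of Il1r1 carries the only call among the members, and its first 30 bases, as the scanner files give them, are shown with those of the receptors that were read by several probes.
Il1r1 A_51_P271503: tacttagatttcaccgtactttctgatggt
Il6ra A_51_P415855: cctgcccacattcctggtagctggaggaag
Il6ra A_51_P415863: cctgagacctgggacccgagttactacttg
Tgfbr2 A_51_P450573: tctagcggggaatttacagaatgctggtcc
Tgfbr2 A_52_P251403: gaagctgatggatttcagtgacaactgcgc
Tgfbr2 A_52_P3811: ctgaagcataaaccactcctattttttctg
On mm9, the build of the scanner files, the Il1r1 probe (NM_008362) lies at chr1:40372667-40372726 on the plus strand. The Il6ra probes (NM_010559) lie at chr3:89680743-89680802 and chr3:89690491-89690550 on the minus strand, 9748 bases apart. The Tgfbr2 probes lie on the minus strand at chr9:115997155-115997214 for NM_009371, at chr9:116019196-116019255 for AF406755 and at chr9:116039845-116039904 for AK090393. The AF406755 and AK090393 probes start 22041 and 42690 bases above that of NM_009371 and were designed on other transcript records, so that the 3 probes do not read 1 stretch of RNA.

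Levels are normalized log2 intensities throughout, and each difference is the BTBR mean minus the B6 mean on that scale. Feature Extraction calls a spot well above background by comparing it with its local background, and a probe was tested when it was so called on at least 75% of the arrays of 1 strain. Of the 13 probes, 10 were tested, which cover 9 genes. On the B6 arrays 56.9% to 71.9% of all probes met that call, on the BTBR arrays 61.8% to 71.5%, and no spot was saturated. The arrays sat on 2 slides, with replicates 1 and 2 of both strains on slide 1 and replicates 3 and 4 on slide 2. Limma set each difference against the spread between mice, with p-values adjusted over all 27981 probes tested.

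Il1r1 was lower in the BTBR hippocampus at its 1 probe, and the other 8 tested genes were not called. The 1 called gene out of 9 stands beside 10.1% of all 18398 gene names tested, of which 5.77% were called lower, and the 1 called probe out of 10 stands beside 7.61% of all probes. The rank product, the test named in the study's methods, also called Il1r1 alone at a pfp (estimated share of false positives) of 0.05 or less, beside 5.46% of gene names. Il1r1 was also the only tested member with an unadjusted p under 0.05. Arrays of both strains did not overlap for 1 of the 10 tested probes, with BTBR lower, beside 14.2% of all probes (7.26% with BTBR lower). The difference was below 0 for 7 tested probes and above 0 for 3.

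**Figure D1:**
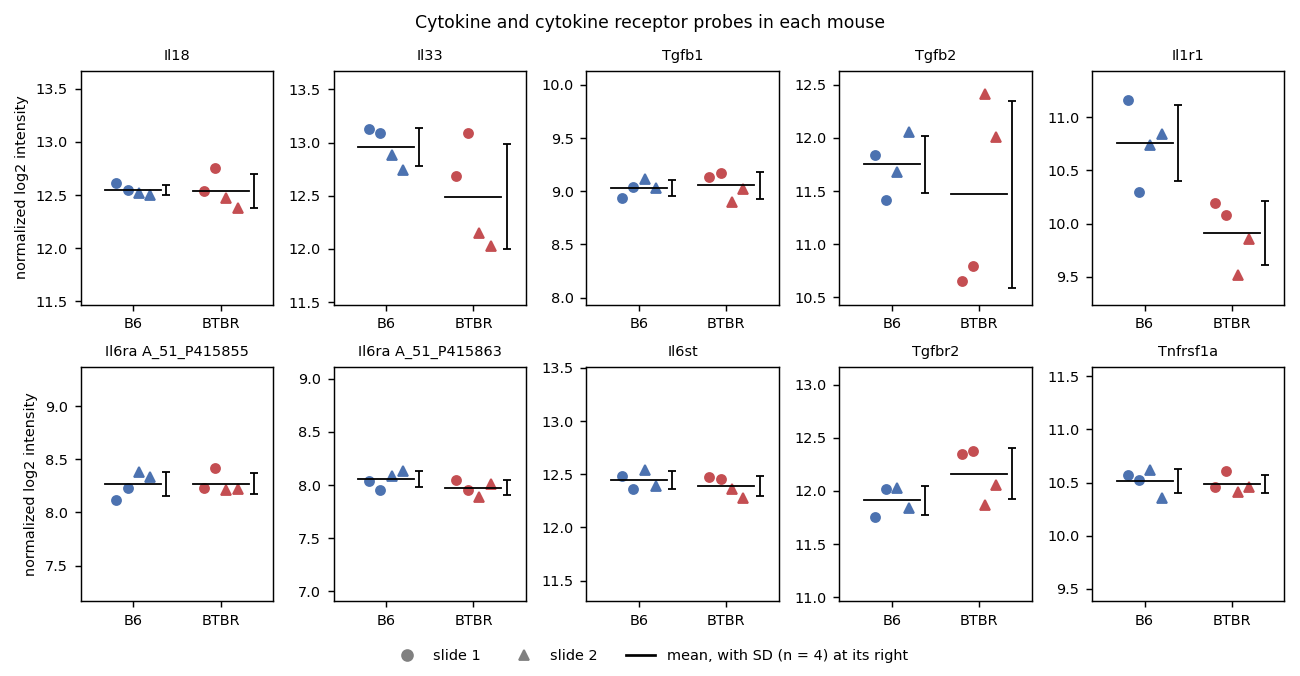
Normalized log2 intensity of the 10 tested probes in each of the 8 mice, with circles for slide 1, triangles for slide 2, a line at the mean of 4 mice and the SD beside it. Each panel spans the same range on its axis. The BTBR mice lie below all B6 mice for Il1r1 (9.51 to 10.20 against 10.29 to 11.16), and the strains overlap in the other panels.

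Among the ligands, Il1b was at the level of the background. Il1b encodes interleukin-1β, the main inflammatory form of interleukin-1. Its probe (NM_008361, chr2:129190347-129190406, minus strand) was printed 10 times on each array, and 4 of 80 spots were called well above background, 1 each in B6 replicates 2 and 3 and 2 in BTBR replicate 4. Its normalized log2 intensity was 7.75, 7.77, 7.83 and 7.67 in the B6 mice and 7.78, 7.75, 7.61 and 7.82 in the BTBR mice. By the median of its spots the probe never rose well above background, and it was not tested, and no fold is given for it.

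Il18, the second interleukin-1 family ligand cut by caspase-1, showed no difference that passed the test. Its probe (NM_008360, chr9:50387470-50389598, plus strand) spans 2129 bases of the genome, more than its 60 bases. By these coordinates it is not 1 unbroken stretch, and exon positions were not annotated. All 80 of its spots were well above background. Il18 measured 12.61, 12.55, 12.52 and 12.50 in the B6 mice and 12.54, 12.76, 12.47 and 12.38 in the BTBR mice. The BTBR values lie on both sides of the B6 values. The difference was -0.01 (SE 0.09, n = 4 and 4, limma adjusted p = 0.971), and its 95% interval runs from -13.2% to 13.6% on the linear scale. Spots of this probe on 1 array had a median SD of 0.16, against 0.12 between mice of a strain.

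Il33, an alarmin found in glial nuclei, was lower in the mean of BTBR but varied among the BTBR mice. The probe (NM_133775, chr19:30034990-30035049, plus strand) measured 13.12, 13.09, 12.89 and 12.74 in the B6 mice and 12.68, 13.09, 12.15 and 12.03 in the BTBR mice. BTBR replicate 2 was as high as the B6 mice of the same slide, and the other 3 BTBR mice were below all 4 B6 mice. The means were 12.96 ± 0.18 and 12.49 ± 0.49 (SD, n = 4 each), and the difference of -0.47 (SE 0.22, 95% interval -0.97 to 0.03) did not pass the test (limma adjusted p = 0.306). The exact two-sided permutation p over the 8 arrays was 0.143, and 0.0286 is the smallest this design allows. The slides gave different values. Within slide 1 the difference was -0.22 (limma adjusted p = 0.388), and within slide 2 it was -0.72 (limma adjusted p = 0.0397), with 2 mice of each strain on a slide. Over all probes 8.65% were called within slide 1 and 3.70% within slide 2. For the change of the Il33 difference from slide to slide, limma gave an unadjusted p of 0.0393 and an adjusted p of 0.494. Il33 is known from oligodendrocytes and astrocytes, and the mean log2 level of 6 oligodendrocyte markers was 15.31, 15.56, 14.88 and 14.53 in the BTBR mice, against 14.80 to 14.99 in the B6 mice. The mean level of 6 astrocyte markers was 13.36 to 13.47 in BTBR and 13.67 to 13.78 in B6. At the probe with the highest intensity Gfap differed by -1.30 (-0.57 and -0.49 at its other probes) and the other 5 by -0.26 to 0.19. Of these 6 markers, 5 were lower and 1 higher at that probe. The part of these markers in the Il33 values was not tested.

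Tgfb1 and Tgfb2 encode secreted ligands of the same receptor complex, and they differed in how far the mice spread. Tgfb1, the form best known from microglia, was read by 10 spots (NM_011577, chr7:26489877-26489936, plus strand), all well above background. It measured 8.93, 9.04, 9.12 and 9.03 in the B6 mice and 9.14, 9.17, 8.90 and 9.02 in the BTBR mice. Taken over both slides the strains overlapped, with a difference of 0.03 (SE 0.08, 95% interval -0.15 to 0.21, limma adjusted p = 0.896). It was 0.17 within slide 1 (limma adjusted p = 0.298) and -0.11 within slide 2 (limma adjusted p = 0.736). The difference between slides had a limma adjusted p of 0.520. The SD between mice was 0.10 and that among spots 0.06.

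Tgfb2 had the widest spread of all members. Its probe (NM_009367, chr1:188447534-188447593, minus strand) measured 11.84, 11.42, 11.68 and 12.06 in the B6 mice and 10.65, 10.80, 12.41 and 12.01 in the BTBR mice. The first 2 BTBR mice, on slide 1, were below every B6 mouse, and the other 2, on slide 2, were among or above them. The pooled SD within strains was higher than that of 98.5% of tested probes, and the difference of -0.28 (SE 0.38, 95% interval -1.15 to 0.58) did not pass the test (limma adjusted p = 0.769). Within slide 1 the difference was -0.91 (limma adjusted p = 0.0384), and within slide 2 it was 0.34 (limma adjusted p = 0.603). The difference between slides had an unadjusted p of 0.0031 and an adjusted p of 0.411 in limma, where 0 of 27981 probes (0.00%) passed the adjusted test and 2782 (9.94%) had an unadjusted p under 0.05.

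The same BTBR mice of slide 1 also differed from the rest in hippocampal and choroid plexus markers, and replicate 1 alone in thalamus markers. The mean log2 level of 5 hippocampal markers was 12.91 and 12.70 in BTBR replicates 1 and 2, 14.01 and 13.71 in replicates 3 and 4, and 13.28 to 13.88 in the B6 mice. For 4 choroid plexus markers the BTBR values were 13.82, 13.76, 11.99 and 11.77, against 11.56 to 13.06 in B6. For 5 thalamus markers BTBR replicate 1 reached 13.49, and the other 7 mice lay between 10.38 and 11.04. All markers of these 3 lists that were on the array passed the filter on dim probes. Their part in the Tgfb2 values was not tested.

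**Figure D2:**
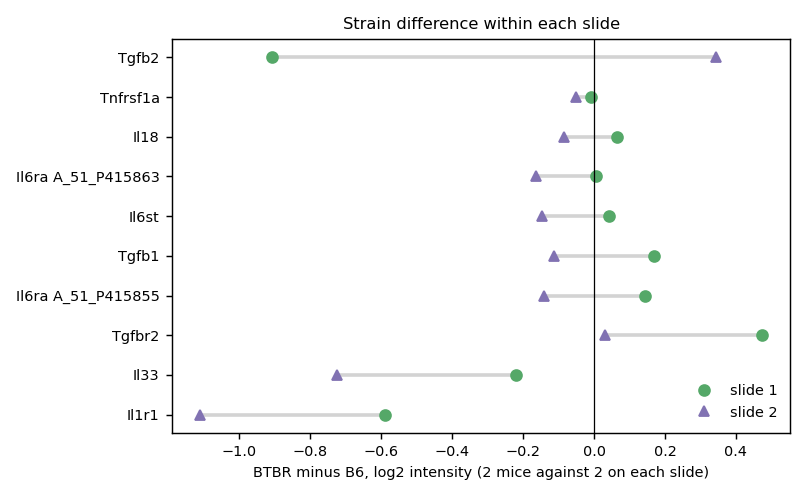
BTBR minus B6 in log2 intensity within slide 1 (circles) and within slide 2 (triangles) for the 10 tested probes, 2 mice against 2 on each slide, with a bar joining both values. Tgfb2 moves from -0.91 on slide 1 to 0.34 on slide 2, and Il1r1 and Il33 lie below 0 on both slides.

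Among the receptors, Il1r1, the signaling receptor of interleukin-1, carried the difference. It measured 11.16, 10.29, 10.74 and 10.84 in the B6 mice and 10.20, 10.08, 9.51 and 9.85 in the BTBR mice. The highest BTBR mouse, at 10.20, was just below the lowest B6 mouse, at 10.29, and the strains did not overlap. The means were 10.76 ± 0.36 in B6 and 9.91 ± 0.30 in BTBR (SD, n = 4 each), a difference of -0.85 (SE 0.20, 95% interval -1.30 to -0.40, limma adjusted p = 0.0337). On the linear scale the B6 level was 1.80-fold that of BTBR. The rank product gave a pfp of 0.0160, and the exact two-sided permutation p was 0.0286, the smallest possible. Il1r1 was read by 1 probe with 1 spot per array, so no other probe could be compared. The BTBR sequence at that probe was not analysed. In bulk tissue, fewer cells of a type and less RNA per cell cannot be told apart.

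The Il1r1 call was close to the threshold. The pooled SD of the probe was higher than that of 91.5% of tested probes. Both slides gave a negative difference, -0.59 on slide 1 (limma adjusted p = 0.213) and -1.11 on slide 2 (limma adjusted p = 0.0780), and the difference between slides had a limma adjusted p of 0.618. With 1 array left out in turn the difference stayed between -1.0045 and -0.72, and the limma adjusted p lay between 0.0138 and 0.0955. It was above 0.05 without B6 replicate 1 (0.0849), 3 (0.0877) or 4 (0.0955) and without BTBR replicate 2 (0.0549), 3 (0.0597) or 4 (0.0754).

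Il1r1 is known from endothelial cells, and some astrocytes and neurons also carry it. The mean log2 level of 6 endothelial markers overlapped between strains, 11.01 to 11.31 in B6 and 11.09 to 11.30 in BTBR, with 0 of 6 called. For 6 astrocyte markers the levels did not overlap, with 13.67 to 13.78 in B6 and 13.36 to 13.47 in BTBR, and 1 of the 6, Gfap, the intermediate filament of astrocytes, was called and fell by 1.30 at its probe with the highest intensity (limma adjusted p = 0.0014) and by 0.57 and 0.49 at its other probes. The other 5 astrocyte markers were not called, and at the probe with the highest intensity their differences lay between -0.26 (Aqp4) and 0.19 (Aldh1l1). Of all 6, 5 were lower and 1 higher at that probe, with a median of -0.24, and Gfap has the largest share in the difference of the mean. Another Aqp4 probe differed by -0.35, not called. The level of 8 microglia markers overlapped, 11.83 to 11.97 in B6 and 11.78 to 12.10 in BTBR, but 3 of the 8 were called in opposite directions, Cx3cr1 higher and Trem2 and Itgam lower. Cx3cr1 rose by 1.41 at its called probe, but at the probe with the highest intensity 6 of the 8 were lower and 2 higher, with a median difference of -0.12. Their part in the Il1r1 values was not tested.

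The 3 gene names whose profile over the 8 arrays was most like that of Il1r1 were TC1655445, with Pearson's r = 0.98, Csf1, with r = 0.97, and Cryba4, with r = 0.96. These values are a description. They include the strain difference, since all 3 had negative differences of their own, -1.58, -0.29 and -0.30, and the arrays share their normalization.

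Il6ra and Il6st, the binding and signaling subunits of the interleukin-6 receptor, did not differ between the strains by this test. Both Il6ra probes were close to background. A_51_P415855 was well above background on 3 B6 and 4 BTBR arrays and measured 8.12, 8.23, 8.38 and 8.34 in B6 and 8.23, 8.41, 8.21 and 8.22 in BTBR. Its difference was 0.00 (SE 0.08, 95% interval -0.18 to 0.18, limma adjusted p = 0.995). A_51_P415863, which was well above background on 3 arrays of each strain, measured 8.04, 7.96, 8.09 and 8.13 in B6 and 8.05, 7.96, 7.88 and 8.01 in BTBR. The difference there was -0.08 (SE 0.07, 95% interval -0.23 to 0.07, limma adjusted p = 0.613), and the strains overlapped at both probes. At such levels the offset of 50 that was added to each intensity shrinks a difference.

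Il6st, which all cytokines of the gp130 family use, was well above background on all arrays (NM_010560, chr13:113296586-113296645, plus strand). It measured 12.49, 12.36, 12.54 and 12.39 in the B6 mice and 12.48, 12.45, 12.37 and 12.27 in the BTBR mice. The values overlapped, and the difference was -0.05 (SE 0.07, limma adjusted p = 0.773). On the linear scale its 95% interval runs from -14.0% to 8.06%.

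Tnfrsf1a encodes the tumor necrosis factor receptor that carries a death domain, and no difference between the strains was detected for it. The 10 spots of its probe (NM_011609, chr6:125312376-125312435, plus strand) were all well above background. Tnfrsf1a measured 10.57, 10.52, 10.62 and 10.36 in the B6 mice and 10.46, 10.61, 10.41 and 10.46 in the BTBR mice. The difference was -0.03 (SE 0.08, limma adjusted p = 0.886), with a 95% interval from -13.2% to 10.6%. Within slides it was -0.01 and -0.05.

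Tgfbr2, the ligand-binding receptor of transforming growth factor β, had its highest values in BTBR mice of slide 1. The probe designed on NM_009371 measured 11.75, 12.02, 12.03 and 11.84 in the B6 mice and 12.34, 12.38, 11.87 and 12.06 in the BTBR mice. BTBR replicates 1 and 2 were above all B6 mice, BTBR replicate 4 was above them by less, and replicate 3 was among them. The difference of 0.25 (SE 0.12, 95% interval -0.03 to 0.53) did not pass the test (limma adjusted p = 0.335, exact permutation p = 0.114). It was 0.47 within slide 1 (limma adjusted p = 0.0635) and 0.03 within slide 2 (limma adjusted p = 0.971), with an unadjusted p of 0.0398 and an adjusted p of 0.495 for the difference between slides. These are the mice of slide 1 whose region markers are given beside Tgfb2, and here too the part of those markers was not tested.

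The other 2 Tgfbr2 probes stayed at background. The AF406755 probe was well above background on 0 of 8 arrays, with means of 7.74 and 7.85. The AK090393 probe was so on B6 replicate 3 alone, with means of 7.81 and 7.87. Neither was tested, and no fold is given.

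**Figure D3:**
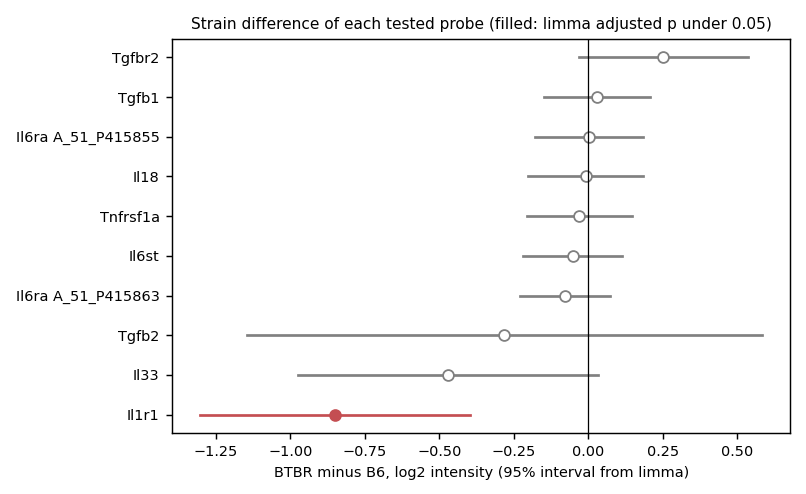
BTBR minus B6 in log2 intensity for the 10 tested probes, with 95% intervals from limma and a filled red point where the adjusted p was under 0.05. The interval of Il1r1, from -1.30 to -0.40, lies below 0, and those of the other probes include 0, with the widest for Tgfb2 (-1.15 to 0.58).

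The genes around the members were described by 14 lists written from general knowledge, from ligands to signaling proteins. They hold 169 genes, of which 164 were on the array by name and 131 were tested. Limma called 14 of the 131 (beside 10.1% of all gene names), 4 higher and 10 lower in BTBR, where 4.28% of all gene names were called higher and 5.77% lower. Leaving out probes that were well above background on no array of a strain, which takes Nfkb1 from the calls, 13 were called (9.92%, beside 9.31% of all gene names), 4 higher and 9 lower. With 1 array left out, 2 to 4 were called higher and 4 to 8 lower, and with the replicate number as a block 6 were called lower. Without the members, 13 of 122 were called, 4 higher and 9 lower, and the median difference at the probe with the highest intensity was 0.02, beside 0.01 over all gene names tested. The rank product called 2 of the 131, Il1r1 and Il17d, beside 5.46% of all gene names. No gene was called by limma in 7 of the 14 lists.

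Of 10 interleukin-1 family ligands, 2 were tested, Il18 and Il33, and none was called. Of 11 receptors and binding proteins, 9 were tested and 2 were called, both lower, beside 10.1% of all gene names. They were Il1r1 and Il18bp, a secreted protein that binds and blocks interleukin-18. Il18bp fell by 0.40 (SE 0.09, limma adjusted p = 0.0271) and 0.34 (SE 0.08, limma adjusted p = 0.0369) at its probes, and the arrays of both strains did not overlap. The first call held with 1 array left out only for B6 replicate 2 or BTBR replicate 1, and the second only for BTBR replicate 1, with adjusted p between 0.0105 and 0.106. The first was also lost with the processed signal (0.0573) and the second with median centring (0.0578). Il1rap, the coreceptor of Il1r1, had 4 probes with differences of -0.59, -0.43, 0.20 and -0.03, none called.

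Of 20 genes of interleukin-1 maturation and signaling, all were tested and 4 were called, 1 higher and 3 lower, beside 10.1% of all gene names. Irak2, a kinase of the receptor complex, rose by 0.42 (SE 0.07, limma adjusted p = 0.0041), from 10.65 to 10.72 in the B6 mice to 10.99 to 11.22 in the BTBR mice. Map3k7, the kinase TAK1, fell by 0.31 (SE 0.06, limma adjusted p = 0.0159, up to 0.0609 without B6 replicate 3 or 4). Nfkb1 is counted among the lower genes through 1 of 3 probes, which was well above background on 3 B6 arrays and 0 BTBR arrays and so passed the filter through B6 alone. Its call therefore sets B6 against background, and without it 3 of the 20 were called, 1 higher and 2 lower. The measured means at that probe were 7.99 and 7.67 (limma adjusted p = 0.0258), a bound of 1.17-fold or more with the higher of its own value and the lowest value well above background taken on each BTBR array. The value ran from -2.59 with the processed signal to -0.16 in the deposited matrix (limma adjusted p = 0.0789). The other Nfkb1 probes differed by 0.23 and -0.07, not called, and the median over the probes was 0.22, the other direction. The fourth gene, named after its values were seen, was Pycard, the inflammasome adaptor, with -0.35 (limma adjusted p = 0.0487) and, at its other probe, -0.31 (limma adjusted p = 0.125). With 1 array left out this call held only for BTBR replicate 2 or 3. It was lost under 14 of 20 alternatives, among them the processed signal (0.0901), the slide as a block (0.0609), no filter on dim probes (0.0596) and the gene median (0.0634).

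In the gp130 system, 0 of 5 tested ligands and 1 of 6 tested receptors were called. The receptor was Osmr, which pairs with gp130 to bind oncostatin M. Osmr measured 10.36 to 10.71 in the B6 mice and 9.75 to 10.06 in the BTBR mice, a fall of 0.52 (SE 0.10, limma adjusted p = 0.0135), and was -0.51 and -0.52 within the slides. Its second probe differed by 0.00, and as a gene median Osmr was -0.26 and no longer called (limma adjusted p = 0.180). None of 8 tested JAK-STAT genes was called by limma.

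In the tumor necrosis factor system, 0 of 3 tested ligands and 3 of 10 tested receptors were called, beside 10.1% of all gene names. Tnfrsf21, a death receptor, fell by 0.60 at 1 probe (SE 0.11, limma adjusted p = 0.0101), and its other probes differed by -0.23 and -0.20, not called. As a gene median it was -0.23 and the call was lost (limma adjusted p = 0.628), and at the called probe it was -1.41 with the processed signal and -0.40 in the deposited matrix. Tnfrsf11a, the receptor RANK, rose by 0.35 at 1 probe (limma adjusted p = 0.0355) and differed by 0.13 at the other, not called. Its call was lost with the processed signal, where the difference was 0.9985 (limma adjusted p = 0.0729), in the deposited matrix (0.22, 0.0538) and as a gene median (0.24, limma adjusted p = 0.259). Tnfrsf10b, a receptor of TRAIL, rose by 0.34 (limma adjusted p = 0.0453), a call lost with the processed signal, where the difference was 1.17 (limma adjusted p = 0.0973), in the deposited matrix (0.19, 0.0736), without the filter on dim probes (0.0548) and with the slide as a block (0.0572). The called probes of both were well above background on 3 B6 and 4 BTBR arrays, and with 1 array left out the calls held only for BTBR replicate 4 (Tnfrsf11a) and B6 replicate 2 (Tnfrsf10b). Of 11 adaptor and shedding genes, 1 was called. Adam17, the protease that sheds tumor necrosis factor and its receptors, rose by 0.38 (SE 0.07, limma adjusted p = 0.0116) and 0.46 (SE 0.09, limma adjusted p = 0.0131) at its probes.

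In the transforming growth factor β system, 0 of 10 tested ligand and latency genes and 0 of 6 receptors were called. Among 11 tested signaling genes and targets 1 was called, Smurf1, a ubiquitin ligase that acts on receptors and Smad proteins, which fell by 0.40 at 1 probe (limma adjusted p = 0.0124) and differed by 0.03 at the other. Its gene median of -0.18 was not called (limma adjusted p = 0.0981).

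Among further cytokines 2 of 8 tested genes were called, beside 10.1% of all gene names. Il17d, a member of the interleukin-17 family, had the largest difference of the 131 genes. Its probe (NM_145837, chr14:58161919-58161978) measured 13.20, 13.08, 13.11 and 13.002 in the B6 mice and 9.27, 9.61, 9.19 and 9.54 in the BTBR mice. It fell by 3.69 (SE 0.10, limma adjusted p = 1.0e-07), and the difference was -3.70 within slide 1 and -3.69 within slide 2. Csf1, the growth factor of microglia, fell by 0.29 (SE 0.07, limma adjusted p = 0.0428), a call that held with 1 array left out only for BTBR replicate 1. It was lost with the processed signal (0.0934) and in the deposited matrix (0.135). None of 22 tested receptors of other cytokines was called by limma.

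**Figure D4:**
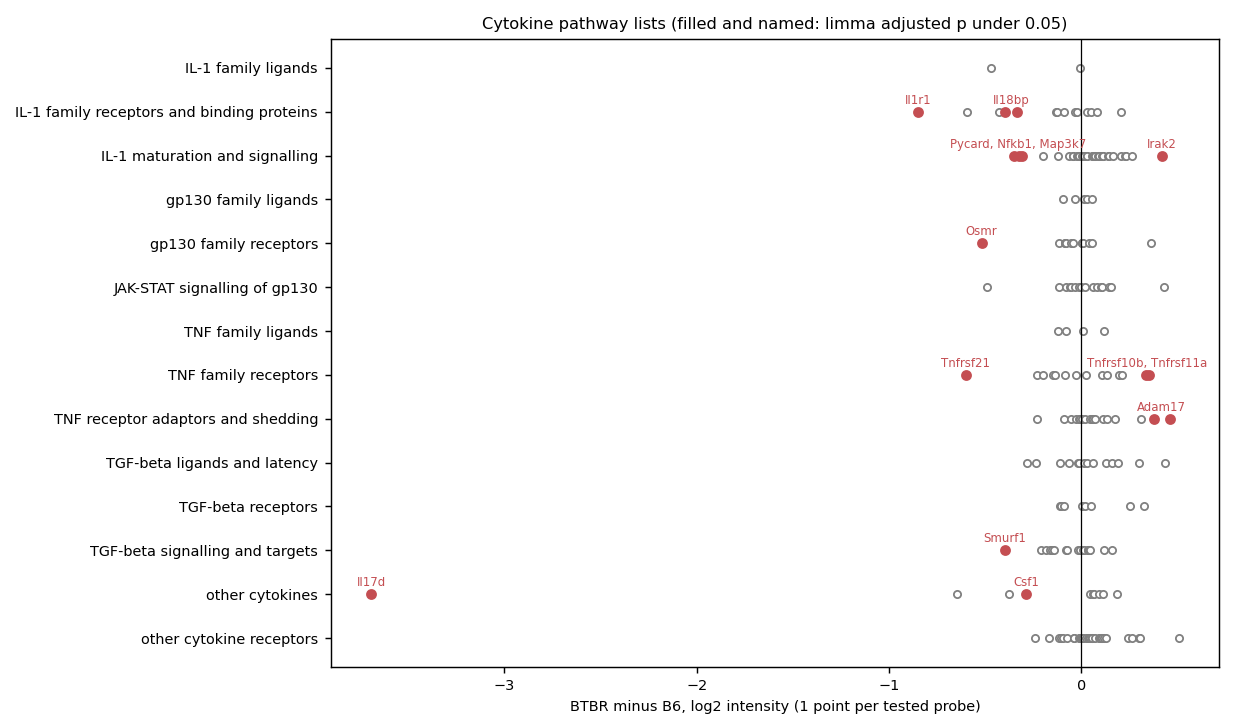
BTBR minus B6 in log2 intensity of every tested probe of the 14 cytokine lists, 1 point per probe, with filled and named points where the limma adjusted p was under 0.05. Il17d lies apart at -3.69, and the next lowest called probes are those of Il1r1 at -0.85 and Tnfrsf21 at -0.60.

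Markers of the cells that make or bind these cytokines moved in part, and their calls stand beside 10.1% of all gene names. Of 8 microglia markers, Cx3cr1 was higher by 1.41 at 1 probe (limma adjusted p = 1.1e-05) and differed by -0.10 at the other (gene median 0.66), Trem2 fell by 0.60 (limma adjusted p = 0.0023), and Itgam fell by 0.40 at 1 probe (limma adjusted p = 0.0127) and differed by -0.05 at the other, with a gene median of -0.22 that was not called (limma adjusted p = 0.326) and -0.88 with the processed signal. Of 6 leukocyte and blood markers, Ptprc was called and fell by 0.84 (limma adjusted p = 9.5e-05), with -1.36 in the processed signal. The remaining 5 had differences of 0.01 to 0.42, not called. Of 5 neuron markers, Syt1 fell by 0.71 at 1 of 6 probes (limma adjusted p = 0.0134), with the other 5 between -0.29 and 0.03 and a gene median of -0.23 that was not called (limma adjusted p = 0.371). No marker of oligodendrocytes, endothelium, meninges, choroid plexus, thalamus or hippocampal regions was called by limma. The rank product called Mobp of oligodendrocytes, Wfs1 of the hippocampal list, Slc6a13 of the meninges and Prkcd and Slitrk6 of the thalamus list.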

How the data were processed

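The hippocampus of 4 B6 and 4 BTBR mice was measured on 8 single-color arrays. The intensity of each spot, its local background and its flags were deposited by the authors as read by the scanner software, Feature Extraction in version 10.7.3.1 (the submitters' processing notes name Agilent Feature Extraction 9.1). The authors also deposited a matrix of log2 values made with Agi4x44PreProcess and quantile normalization, used here as an alternative; its signal column and offset are not given in the sources used here. From the mean intensity of a spot the median local background was taken off, with 0.5 as the minimum and 50 as an offset, and quantile normalization was run on the log2 values of all spots. Flagged outlier spots were dropped on all arrays if flagged on 1 (which removed 154 of 41174 probes), and the median of the replicate spots was taken.

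Strains were compared with limma 3.58.1 in R 4.3.3 and Benjamini-Hochberg adjustment, called at an adjusted p under 0.05, and with the rank product (100 permutations, 16 array pairs). Both were also run on simulated data with independent values and no slide structure, which does not show how they perform on these arrays. The number of arrays limits the precision. Deviations of same-numbered mice correlated with r of 0.51 and 0.39 for numbers 2 and 4 but -0.14 and -0.10 for numbers 1 and 3, so replicate numbers were not treated as pairs.

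The members and lists were chosen with earlier results of these data known. All members were named with every probe. From each list the called genes with the smallest p, at most 3, were named, with Pycard and Il1rap named after their values were seen. Some genes of the lists are not reported here and were left out of the list counts. Gene names come from the scanner files, and all 10 member symbols are in RefSeq's GRCm38.p6 gene table. Probe positions are on mm9, without annotation of exon or UTR here. The BTBR sequence at the probes was not analysed here. The alternatives were the processed signal, normexp, the deposited matrix, an offset of 16, median centring, other filters on dim or flagged probes, blocks, other limma options, gene medians, stricter thresholds and each array left out.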

Additional observations from a re-analysis of the deposited data

Results flagged for a closer look

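At the Il6ra probe A_51_P415855, BTBR replicate 2 stood far from the other BTBR mice, at 8.41 against 8.23, 8.21 and 8.22. Its gap to the nearest of them was 0.936 of the range of the group, above the limit of Dixon's test for 4 samples. It was the 1 such value among 26 groups of 4 mice (13 probes in 2 strains), and about 1 in 20 groups passes this limit by chance. The probe is close to background.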

How the results depend on the processing

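Il1r1 stayed lower in BTBR under all 19 alternatives, between -1.0045 and -0.72, and stayed called by limma in 12. Beside the arrays left out, the call was lost with the processed signal (-0.98, adjusted p = 0.0565). The number of called members was then 0 by limma and by the rank product (pfp 0.0680), and it was also 0 at an adjusted p of 0.01 and at a pfp of 0.01. It was 0 to 1 by either test with 1 array left out, by the rank product 0 without B6 replicate 1, 3 or 4. The 4 list genes called higher became 2 with the processed signal, the deposited matrix or probes well above background on all arrays, and 2 to 4 with 1 array left out (2 without B6 replicate 1, 3 or 4 or BTBR replicate 1). The 10 called lower became 4 to 8 with 1 array left out (4 without B6 replicate 3, 5 without B6 replicate 1 or 4 or BTBR replicate 4, 6 without BTBR replicate 2). The cause was not tested. With the replicate number as a block, 6 list genes were called lower, 1650 probes were called in place of 2129, and Il1r1 had an adjusted p of 0.0442. The block also ended the calls of Csf1 (0.0702), Map3k7 (0.0562), Tnfrsf10b (0.0839), Pycard (0.0976), 1 of 2 Adam17 probes (0.0626) and both Il18bp probes (0.0620 and 0.0638). With the slide as a block its adjusted p was 0.0355, and that of Il33 was 0.0701.

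Differences near 0 changed sign. Il18 was 0.0286 in the deposited matrix and -0.0834 to 0.0420 with 1 array left out. The Il6ra probe A_51_P415855 was -0.0048 with median centring, -0.0382 as a gene median and -0.0470 to 0.0393 with 1 array left out. Tgfb1 was -0.0109 to 0.0812 with 1 array left out. Tnfrsf1a was 0.0177 with the processed signal, 0.0245 in the deposited matrix and -0.0828 to 0.0035 with 1 array left out. As a gene median, Nfkb1 was 0.22. Il33, Tgfb2 and Tgfbr2 kept their direction and were not called under their 19 alternatives, with Tgfb2 between -0.60 and -0.01. Il33 without BTBR replicate 2 was -0.67 (adjusted p = 0.0588). The slide difference was called for 0 member probes in all 8 fits with 1 array left out.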
